A study of Mus musculus with 4 samples.

Results

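The oocyte linker histone gene H1f8, the genes H3f3a and H3f3b for the histone variant H3.3, and 7 genes for the chaperones that carry or deposit histone H3 were described in mouse 2-cell embryos. The members were chosen by symbol, as the 10 rows named H1f8, H3f3a, H3f3b, Hira, Asf1a, Asf1b, Chaf1a, Chaf1b, Daxx and Atrx among 27115 genes of the deposited table. The choice was made with results of the same comparison known, among them the low H1f8 level in embryos overexpressing Trim75. The differences between groups are therefore given for these genes as a description and not as a test. All 10 passed the filter on low counts.

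RNA was sequenced from 2-cell embryos kept in culture, at a time labelled day 2. There were 2 control libraries, labelled WT, and 2 libraries labelled Trim75 OE. Trim75 belongs to the TRIM proteins, and the study addresses its part, as a factor supplied by the oocyte, in switching on the genome of the zygote. The labels give neither strain, number of embryos, nor the way Trim75 was introduced. Nothing in them says that replicates are separate pools, so the spread between them may be technical. The titles of the control libraries carry the tag L2C and those of the overexpression libraries do not, and a difference that this tag may mark cannot be told apart from the treatment.

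Chromatin of the mouse oocyte carries a linker histone of its own, H1f8, which binds between nucleosomes and gives way to somatic linker histones as the embryo develops. Histone H3.3 is the form of H3 that cells deposit outside DNA replication, and maternal H3.3 with the chaperone HIRA is known to rebuild the paternal chromatin in the mouse zygote. ASF1A and ASF1B hand H3 and H4 to HIRA and to CAF-1, whose subunits CHAF1A and CHAF1B load H3 behind the replication fork. DAXX and ATRX place H3.3 at silent repeats and telomeres. Loss of CAF-1 in mouse embryonic stem cells is known to give rise to cells that resemble the 2-cell stage.

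H3f3a and H3f3b make the same protein from different DNA, and this is why their reads can be separated from each other but less well from copies of H3f3a. The first 90 bases of the coding sequences (GENCODE M21, GRCm38) are shown for both genes and for the H3f3a copies H3f3c and H3f3a-ps2, with bases that differ from H3f3a in capitals.
H3f3a: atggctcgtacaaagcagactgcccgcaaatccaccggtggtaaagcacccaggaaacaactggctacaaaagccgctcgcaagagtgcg
H3f3b: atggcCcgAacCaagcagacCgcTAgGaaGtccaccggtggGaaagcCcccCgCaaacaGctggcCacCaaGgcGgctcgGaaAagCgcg
H3f3c: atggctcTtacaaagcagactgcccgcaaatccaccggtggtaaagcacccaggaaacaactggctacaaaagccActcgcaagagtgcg
H3f3a-ps2: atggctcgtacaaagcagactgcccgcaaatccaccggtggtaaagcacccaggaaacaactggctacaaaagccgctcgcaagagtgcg
Over all 411 coding bases H3f3b differs from H3f3a at 95 positions and in 0 of 137 codons by the residue coded. The longest run of identical bases between these genes is 23. H3f3c differs from H3f3a at 4 positions and H3f3a-ps2 at 5, with identical runs of up to 267 and 155 bases. H3f3c has 2 and H3f3a-ps2 has 3 codons that code another residue.

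The libraries held 9965081 and 14599670 counted reads in control and 13349188 and 11124411 under overexpression. Levels are given as raw counts, as CPM (reads scaled to library size with TMM factors) for comparing libraries, or as the deposited FPKM (reads scaled to exon length and library size) for comparing genes. Trim75 stood at 171 and 117 CPM in the control and at 919 and 990 CPM in the overexpression libraries, so the labels and the transcript go the same way. All 9 markers of the oocyte and 2-cell stage passed the filter, with a summed level of 3034 to 3092 CPM in control and 3511 to 3820 CPM under overexpression. Oosp1 alone gave 1462 and 1477 CPM in control and 1976 and 1725 CPM under overexpression. The markers did not go 1 way, as 7 had higher and 2 lower values. For 3 of them both overexpression libraries lay above both controls, and for 1, Gdf9, below. Over all genes tested these shares were 24.0% and 19.6%. Of 6 cumulus markers, 4 were in the table, each with under 10 reads in all. Sperm markers summed to 20.2 and 0 CPM in control and 5.86 and 3.66 CPM under overexpression. Fibroblast markers summed to 2.22 and 2.81 CPM against 9.43 and 10.1 CPM, and blood markers to 12.7 and 15.1 CPM against 12.2 and 7.61 CPM. Trophectoderm markers summed to 18.9 and 15.2 CPM against 22.2 and 0.752 CPM. The part of such cells in the values below was not tested.

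**Figure D1:**
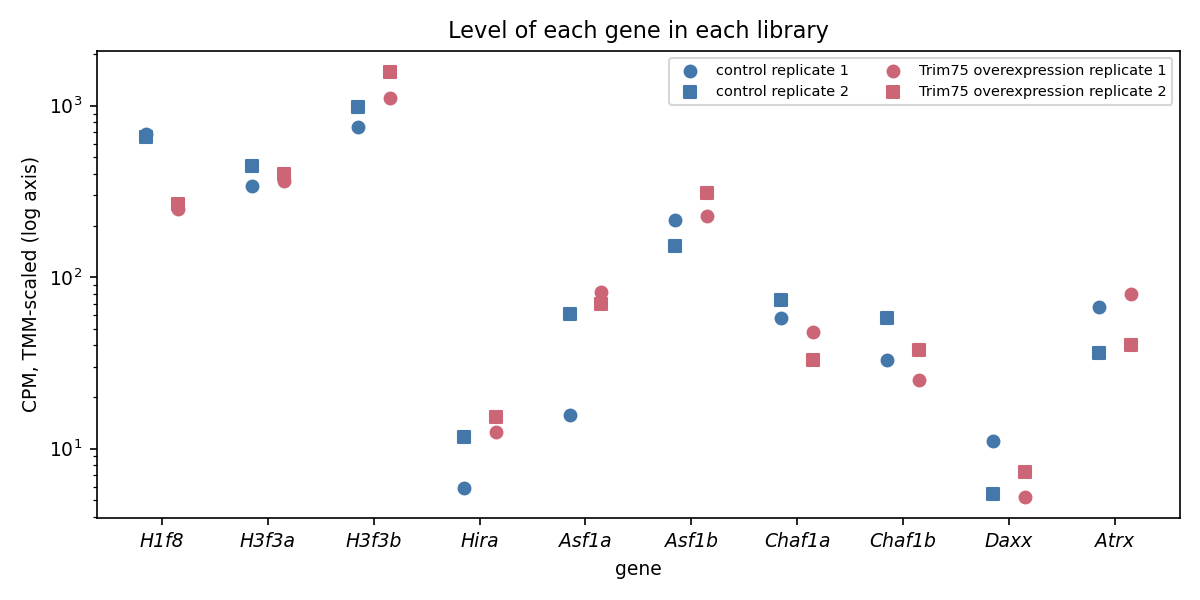
Level of the 10 genes in each library, in TMM-scaled CPM on a log axis, with control libraries in blue and overexpression libraries in red. For H1f8 the control libraries lie at 681 and 656 CPM and the overexpression libraries at 249 and 267 CPM, while the libraries of H3f3a, Chaf1b, Daxx and Atrx overlap.

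H1f8 transcripts were less abundant under overexpression. H1f8 (ENSMUSG00000042279, chromosome 6 from 115944938 to 115950236, plus strand, mm10, protein coding) had 7058 and 9569 reads in control against 3280 and 2840 reads under overexpression. These counts correspond to 681 and 656 CPM in control and 249 and 267 CPM under overexpression. Both overexpression libraries lay below both controls, and within each group the libraries differed by far less than the groups did. The group means were 669 ± 17.6 CPM and 258 ± 12.3 CPM (SD, n = 2), a 2.59-fold lower level, and the fitted log2 fold change was -1.37 ± 0.20 (SE). Leaving out any single library gave values from -1.42 to -1.35. In bulk embryo libraries, fewer cells with a transcript and less of it in each cell cannot be told apart.

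Among all genes of the table ranked by FPKM, H1f8 stood at ranks 91 and 108 in the control libraries and at ranks 313 and 317 in the overexpression libraries. No other annotated gene overlaps H1f8, and no transcript of another gene resembled it at 90% identity over 200 bases, so its count is not shared with a copy under that rule. The patterns closest to H1f8 were searched among 7484 genes with a mean of at least 20 CPM, as the smallest root mean square difference in centred log2 CPM over the 4 libraries. These were Tnfrsf12a at a difference of 0.032, Prr3 at 0.054, Rpl38-ps2 at 0.055, Spdye4b at 0.058 and Ecd at 0.064. The search by its rule picks genes with a group difference like that of H1f8, so no shared function or control is read from it. Tnfrsf12a, a receptor of the tumour necrosis factor family, measured 449 and 436 CPM in control and 164 and 168 CPM under overexpression. Of the other members, Chaf1a was the closest to H1f8, at a difference of 0.42 and rank 787.

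The H3.3 genes differed from each other in their levels, and H3f3b, not H3f3a, had higher values under overexpression. H3f3b (ENSMUSG00000016559, chromosome 11 from 116021912 to 116027962, minus strand) had 7777 and 14329 reads in control and 14673 and 16738 reads under overexpression, or 750 and 982 CPM against 1116 and 1573 CPM. Both overexpression libraries lay above both controls, with a wide spread inside each group. The means were 866 ± 164 CPM and 1344 ± 323 CPM (SD, n = 2), a 1.55-fold difference, and the fitted log2 change was 0.63 ± 0.28 (SE). With 1 library left out it ranged from 0.37 to 0.84.

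H3f3a (ENSMUSG00000060743, chromosome 1 from 180800832 to 180813943, minus strand) had 3534 and 6520 reads in control and 4776 and 4271 reads under overexpression. Its levels of 341 and 447 CPM in control enclosed those of 363 and 401 CPM under overexpression. The fitted log2 change was -0.04 ± 0.24 (SE), and its sign turned, to 0.16, without control replicate 2. On the FPKM scale the level of H3f3b over that of H3f3a was 2.59 in both controls against 3.62 and 4.61 in the overexpression libraries. The ratio was higher in both overexpression libraries than in both controls, and this difference between the genes was not tested. The FPKM of both genes together was 363 and 457 in control against 471 and 615 under overexpression. The ratio and this sum leave out reads on the pseudogene copies described below. These copies held 50.8% to 54.2% of the joint reads for H3f3a and 12.6% to 17.5% for H3f3b. With copies added, H3f3b measured 909 and 1181 CPM in control, against 693 and 931 CPM for H3f3a. Under overexpression these were 1317 and 1799 CPM against 793 and 832 CPM.

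Rows of processed copies of the H3.3 genes also carried reads. The table held 34 pseudogene rows with at least 90% identity to H3f3a over at least 200 bases, H3f3c among them, and they carried 3650 and 7063 reads in control and 5653 and 4582 reads under overexpression. Of the reads on H3f3a and these rows together, 50.8% to 54.2% lay on the pseudogene rows in the 4 libraries. With them added, H3f3a measured 812 ± 168 CPM in control and 812 ± 27.5 CPM under overexpression (SD, n = 2), and the groups overlapped as before. H3f3b had 3 such rows with 12.6% to 17.5% of the joint reads, and with them added it measured 1045 ± 192 CPM and 1558 ± 341 CPM (SD, n = 2), again with the groups apart. Whether the copies are transcribed or took reads of the parent genes was not tested. How reads that match several places were counted is not given in the sources used here, so 1 read may stand on several of these rows. The split between a gene and its copies, the ratio of H3f3b to H3f3a, and the summed levels are therefore uncertain. An antisense transcript, H3f3aos, overlaps H3f3a by 160 exon bases and had 73 reads in control replicate 1 and 0 in the other libraries. Gm17275, also on the opposite strand, shares 638 exon bases with H3f3a and is not among the rows of the table.

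**Figure D2:**
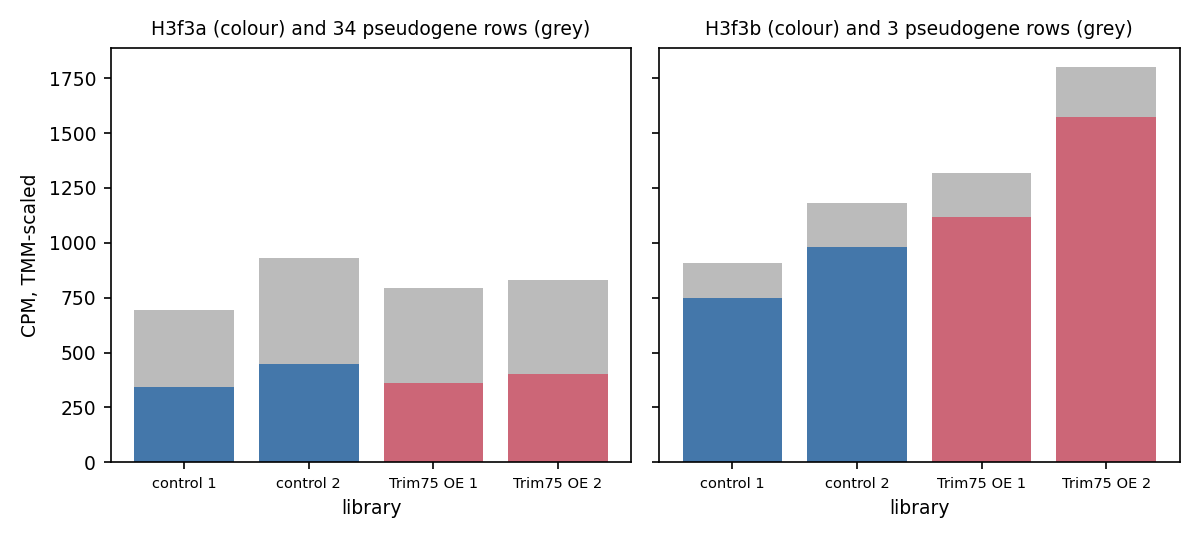
Stacked bars of TMM-scaled CPM in each library for H3f3a with its 34 pseudogene rows and H3f3b with its 3, the gene in colour and the pseudogene rows in grey. H3f3a with copies overlaps between the groups, whereas H3f3b reaches 1317 and 1799 CPM in the overexpression libraries against 909 and 1181 CPM in the controls.

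Ranked by level per length, H1f8 and H3f3b stood in opposite order in the groups. In control embryos H1f8 stood first at 568 ± 31.1 FPKM, ahead of H3f3b at 296 ± 47.8 FPKM (SD, n = 2). In overexpressing embryos H3f3b stood first at 437 ± 96.3 FPKM, ahead of H1f8 at 209 ± 5.64 FPKM (SD, n = 2). The FPKM of H1f8 over that of H3f3b was 2.25 and 1.65 in control against 0.554 and 0.42 in the overexpression libraries, so it lay above 1 in both controls and below 1 in both others. The order in control rests on the exon lengths used, 1201 bases for H1f8 and 2976 for H3f3b. In raw reads and in CPM, H3f3b stood above H1f8 in all 4 libraries. Since the low H1f8 level was part of how the genes were chosen, the order per length is a description.

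H3f3a and Asf1b followed, at 114 ± 18.6 and 80.1 ± 21.6 FPKM in control and 106 ± 5.28 and 111 ± 21.8 FPKM under overexpression (SD, n = 2). Their libraries lay apart in control and overlapped under overexpression. The other 6 genes stood far lower, between 1.43 and 10.6 FPKM in control and between 1.93 and 20.3 FPKM under overexpression. In control, neighbours in the order Asf1a, Chaf1b and Chaf1a overlapped, as did Daxx, Atrx and Hira. In overexpressing embryos Asf1a stood apart from Chaf1b, and the neighbours Chaf1b, Chaf1a, Atrx, Hira and Daxx overlapped. Exon length here joins all annotated transcripts, 21757 bases for Atrx and 1201 for H1f8, which lowers the FPKM of genes with long rarely used exons.

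**Figure D3:**
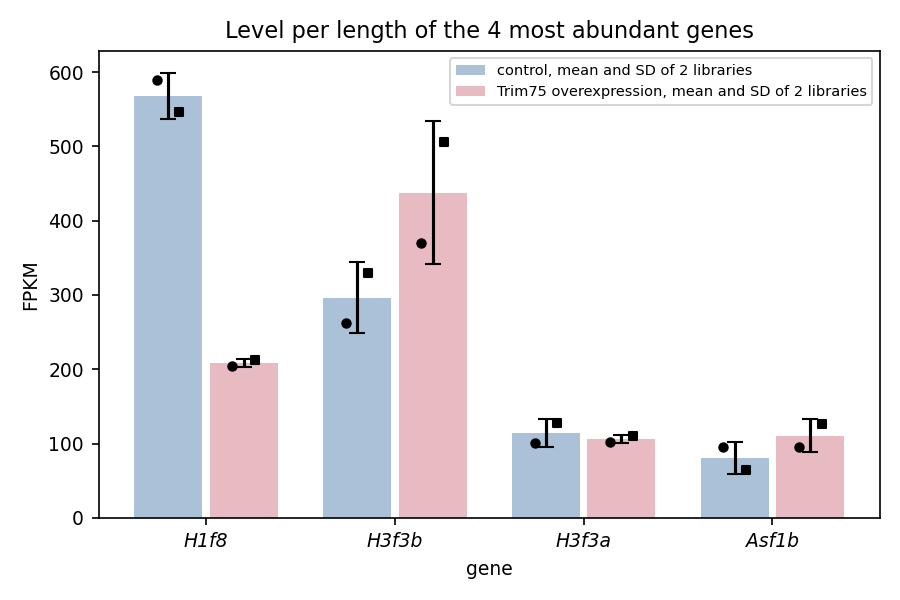
FPKM of the 4 genes with the highest level per length, as mean and SD of 2 libraries per group with each library as a black point (circle replicate 1, square replicate 2). Per exon length, H1f8 exceeds H3f3b in control embryos and H3f3b exceeds H1f8 under overexpression. In CPM, H3f3b exceeds H1f8 in all 4 libraries.

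Promoter windows of H1f8 and H3f3b, the most abundant members, which differed between the groups in opposite directions, are shown for their letters only (RefSeq, GRCm38.p6, 250 bases before to 50 after the start). Capitals mark the CCAAT box, the letters CCAAT on either strand, which is known to be bound by the factor NF-Y. The H1f8 window is chr6:115944681-115944980 on the plus strand and the H3f3b window chr11:116024455-116024754 on the minus strand. The H3f3b window lies inside the GENCODE span of the gene, which reaches 116027962. RefSeq and the outermost GENCODE end thus place its start differently, and which start the embryos use was not tested.
H1f8: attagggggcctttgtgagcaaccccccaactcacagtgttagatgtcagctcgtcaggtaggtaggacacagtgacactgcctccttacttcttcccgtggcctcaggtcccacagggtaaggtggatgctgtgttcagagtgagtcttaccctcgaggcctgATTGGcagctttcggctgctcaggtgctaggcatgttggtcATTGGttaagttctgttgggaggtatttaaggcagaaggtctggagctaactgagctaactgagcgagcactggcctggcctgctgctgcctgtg
H3f3b: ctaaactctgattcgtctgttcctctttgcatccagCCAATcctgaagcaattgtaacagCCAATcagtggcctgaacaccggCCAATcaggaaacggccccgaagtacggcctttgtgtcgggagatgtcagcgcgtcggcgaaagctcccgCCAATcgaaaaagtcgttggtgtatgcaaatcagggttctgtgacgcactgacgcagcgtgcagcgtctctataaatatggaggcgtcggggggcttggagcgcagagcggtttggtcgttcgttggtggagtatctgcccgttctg
Of 32851 promoter windows, 37.4% hold at least 1 CCAAT and 3.37% hold 3 or more. H1f8 has 2 matches, and H3f3b, Asf1b and Atrx have 4 each. H3f3b alone of the members holds the letters TATAAA, which 13.6% of all windows hold. All 10 genes had a window in the table, Daxx having 3.

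Hira had few reads and no clear difference. Hira (ENSMUSG00000022702, chromosome 16 from 18877037 to 18970309), the chaperone that deposits H3.3 in transcribed chromatin, had 61 and 171 reads in control and 165 and 163 reads under overexpression. At 5.89 and 11.7 CPM against 12.5 and 15.3 CPM the groups lay apart by little, and the fitted log2 change was 0.66 ± 0.87 (SE). It was 0.24 without control replicate 1 and 1.24 without control replicate 2. Its annotated exons share 2778 bases with Gm28539 on the same strand, which is not among the rows of the table.

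The partners of HIRA in its complex, UBN1, UBN2 and CABIN1, did not separate the groups. Ubn1 measured 77.4 and 74.9 CPM in control and 129 and 32.5 CPM under overexpression. Ubn2 measured 271 and 64.7 CPM against 199 and 120 CPM. Cabin1 measured 91.5 and 12.5 CPM against 110.5 and 84.4 CPM. Of these 3 genes, 0 had the groups apart, beside 43.6% of all genes tested, and with so few genes nothing is read from the count. The median fitted log2 change was 0.08, beside 0.03 over all genes tested. The sign turned for Ubn1 without overexpression replicate 1 (-1.25) and for Ubn2 without control replicate 1 (1.29) or overexpression replicate 2 (0.26). Cabin1 was at 2.95 without control replicate 1 and 0.09 without control replicate 2.

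Both ASF1 genes had higher values under overexpression, with a spread that covered much of the difference. Asf1b (ENSMUSG00000005470, chromosome 8 from 83955507 to 83970197), the more abundant of them, had 2222 and 2212 reads in control and 2977 and 3281 reads under overexpression. The levels were 214 and 152 CPM against 226 and 308 CPM, so control replicate 1 came close to overexpression replicate 1. The fitted log2 change was 0.55 ± 0.31 (SE), and between 0.31 and 0.81 with 1 library left out.

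Asf1a (ENSMUSG00000019857, chromosome 10 from 53596757 to 53609225) had 162 and 885 reads in control and 1079 and 740 reads under overexpression, or 15.6 and 60.7 CPM against 82.0 and 69.5 CPM. Control replicate 1 stood apart from the other 3 libraries. The log2 fold change of 0.99 ± 0.74 (SE) was 0.31 without control replicate 1 and 2.28 without control replicate 2. Mcm9, on the opposite strand, shares 1748 exon bases with Asf1a and had 42 and 340 reads in control and 918 and 722 reads under overexpression. Control replicate 1 was the lowest library for Mcm9 as well. The strand setting of the counting is not given in the sources used here, so reads of these overlapping genes cannot be told apart and the level of Asf1a is uncertain. The FPKM of Asf1b over that of Asf1a was 21.3 in control replicate 1 and between 3.89 and 6.90 in the other libraries.

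The subunits of CAF-1 had lower mean values under overexpression. Chaf1a (ENSMUSG00000002835, chromosome 17 from 56040439 to 56072289), the large subunit, had 600 and 1077 reads in control and 627 and 350 reads under overexpression, or 57.9 and 73.8 CPM against 47.7 and 32.9 CPM. Both overexpression libraries lay below both controls, and the fitted log2 change was -0.71 ± 0.43 (SE). It was between -1.03 and -0.47 with 1 library left out. Ubxn6, on the opposite strand, shares 4648 of the 8854 exon bases of Chaf1a and had 64 and 2 reads in control and 162 and 102 reads under overexpression, so the level of Chaf1a is uncertain.

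Chaf1b (ENSMUSG00000022945, chromosome 16 from 93883901 to 93906115), the middle subunit, had 341 and 846 reads in control and 331 and 401 reads under overexpression. The levels of 32.9 and 58.0 CPM in control and 25.2 and 37.7 CPM under overexpression overlapped. The fitted log2 change was -0.53 ± 0.55 (SE), and it was -0.07 without control replicate 2 and -0.90 without control replicate 1.

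Daxx and Atrx showed no separation of the groups. Daxx (ENSMUSG00000002307, chromosome 17 from 33909414 to 33915590), the chaperone that binds H3.3, had 115 and 79 reads in control and 69 and 78 reads under overexpression. At 11.1 and 5.42 CPM against 5.25 and 7.33 CPM, the fitted log2 change was -0.39 ± 1.00 (SE), which turned to 0.20 without control replicate 1. Atrx (ENSMUSG00000031229, chromosome X from 105797615 to 105929403), the remodelling ATPase that works with DAXX, had 697 and 528 reads in control and 1053 and 429 reads under overexpression. At 67.2 and 36.2 CPM against 80.1 and 40.3 CPM the spread inside each group was larger than the difference between them. The log2 fold change of 0.22 ± 0.57 (SE) turned to -0.38 without overexpression replicate 1 and to -0.16 without control replicate 2.

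**Figure D4:**
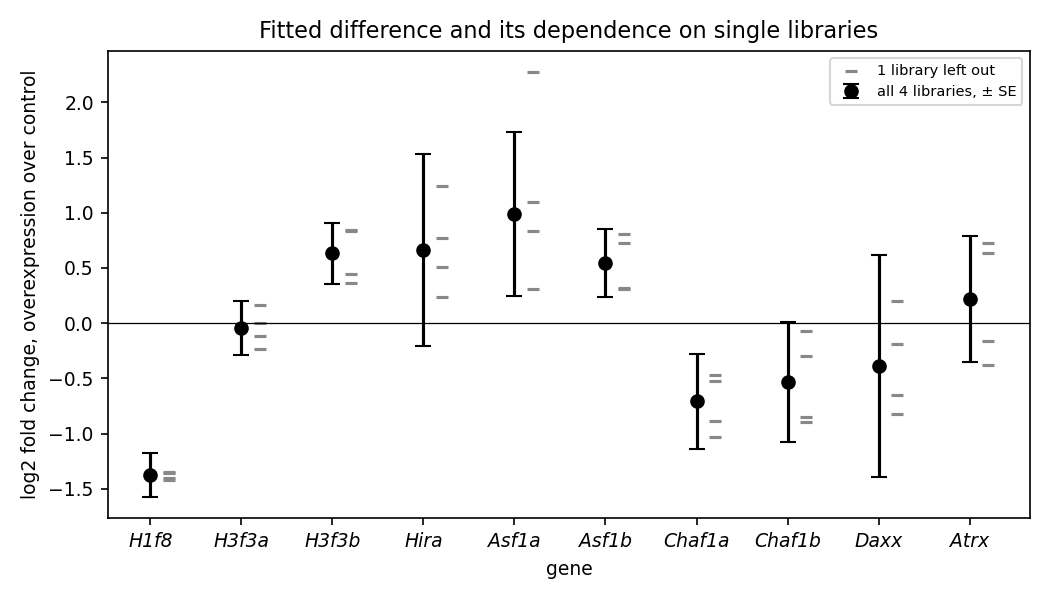
Fitted log2 fold change of overexpression over control with its SE for the 10 genes (black), and the values with 1 library left out in turn (grey dashes). H1f8 stays between -1.42 and -1.35, whereas Asf1a ranges from 0.31 to 2.28 and Daxx, Atrx and H3f3a have values on both sides of 0.

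Over the 10 genes, 6 had the groups apart, 2 lower (H1f8 and Chaf1a) and 4 higher (H3f3b, Hira, Asf1a and Asf1b) under overexpression. Among all 16801 genes tested, 43.6% had the groups apart, 19.6% lower and 24.0% higher, so the count of members is near what the whole table shows. In the edgeR quasi-likelihood test with Benjamini-Hochberg adjustment, 0 of the 10 and 0.0% of all genes passed the threshold of 0.05. Trim75 itself did not pass (edgeR adjusted p 0.32), so the lack of an edgeR call does not show that a gene is unchanged. At an unadjusted p under 0.05, 1 of the 10 (H1f8) and 11.2% of all genes were counted. DESeq2 called 1 of the 10, H1f8, and 4.3% of 15172 genes, of which 1.32% were called as lower. limma on voom weights called 0 of the 10. Since H1f8 was chosen with this contrast known, nothing is read from its call.

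Other genes that handle H3 and H4 had no common direction. Of 13 genes listed, 6 had lower and 7 higher values, 3 lay apart as lower and 2 as higher, beside 19.6% and 24.0% of all genes, and the median fitted log2 change was 0.13 beside 0.03 over all genes. The most abundant were Dek, a DEK-family chromatin protein, at 207 and 575 CPM in control and 407 and 465 CPM under overexpression, and Nasp, which keeps a store of soluble H3 and H4. Nasp measured 270 and 407 CPM against 207 and 242 CPM, both overexpression libraries below both controls. Rbbp7, a WD40 protein that binds histones, measured 217 and 248 CPM against 374 and 219 CPM. The sign turned for Dek without control replicate 1 (-0.41) and for Rbbp7 without overexpression replicate 1 (-0.11). DESeq2 called 1 of the 13, Tonsl, which binds newly made H4 at replication forks, beside 4.3% of all genes. edgeR called 0 of the 13, beside 0.0% of all genes. Tonsl, named after its values were seen, had 77 and 404 reads in control and 6 in each overexpression library. It passed the filter only through the control libraries and is 1 of the 3 that lay apart as lower. Nothing is therefore read from its call or its separation.

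Chaperones of H2A and H2B held 0 calls in edgeR and in DESeq2, beside 0.0% and 4.3% of all genes, so nothing is read from this. Of 11 genes, 7 had higher values, 5 lay apart as higher and 2 as lower, beside 24.0% and 19.6% of all genes, with a median log2 fold change of 0.22. Hirip3, a partner of HIRA, measured 551 and 485 CPM in control and 410 and 445 CPM under overexpression. Set measured 428 and 362 CPM against 222 and 421 CPM. Npm2, the oocyte nucleoplasmin that exchanges sperm proteins for histones, measured 223 and 332 CPM against 252 and 418 CPM, with the groups overlapping. The sign turned for Set without overexpression replicate 1 (0.07) and for Npm2 without overexpression replicate 2 (-0.14).

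The linker histones that follow H1f8 in development were far less abundant than it. Of 10 genes listed, 6 were in the table and 4 passed the filter, 2 with lower and 2 with higher values. The median fitted log2 change was 0.06. The 1 gene with the groups apart, beside 43.6% of all genes tested, was H1f1. H1f1 passed the filter only through the overexpression libraries, so nothing is read from the count or the median. H1f0, the replacement linker histone, measured 111 and 74.3 CPM in control and 111 and 104 CPM under overexpression. The FPKM of H1f8 over that of H1f0 was 10.5 and 15.1 in control against 3.83 and 4.39 in the overexpression libraries. H1f3 measured 4.34 and 2.95 CPM against 1.14 and 5.64 CPM, and H1f10 measured 6.75 and 0 CPM against 2.89 and 0.94 CPM. The sign of H1f0 turned to -0.04 without control replicate 2, and H1f3 and H1f10 rest on few reads. With 1 library left out, H1f3 ranged from -1.66 to 0.60 and H1f10 from -1.85 to 7.62, so both turned sign as well. The highest H1f10 value is fitted against a lone control with 0 reads and gives no size. H1f1, named after its values were seen, had 0 reads in both controls and 42 and 75 reads in the overexpression libraries. Set against a limit of 3 reads over the control group, its mean CPM was 42.6-fold higher. That limit allows for the sampling of reads only and gives no lower bound, as H1f10 had 70 and 0 reads in the controls. H1f1 was called neither by edgeR (adjusted p 0.32) nor by DESeq2 (adjusted p 0.10). Replication-dependent histone messages mostly lack a poly(A) tail, and how the libraries captured such RNA is not given in the sources used here.

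Of 6 H2A variant genes listed, 4 passed the filter, and 3 of these lay apart as lower, beside 19.6% of all genes tested. The median fitted log2 change was -0.65, and with so few genes nothing is read from the count. H2az2 measured 359 and 435 CPM in control and 180 and 213 CPM under overexpression, with a fitted log2 change of -1.01 ± 0.24 (SE). DESeq2 called 1 of the 4, H2az2, beside 4.3% of all genes, and edgeR called 0, beside 0.0%. With so few genes nothing is read from the call. H2az1, which encodes a nearly identical H2A.Z protein, measured 334 and 360 CPM against 301 and 272 CPM. H2ax, which is phosphorylated at DNA breaks, measured 27.1 and 4.59 CPM against 15.0 and 21.5 CPM, and its sign turned without control replicate 2 (-0.57) and without overexpression replicate 2 (-0.07), while it was 1.98 without control replicate 1.

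Genes of the centromeric H3 variant and of the DAXX and ATRX partners gave no call in edgeR or DESeq2. Over all genes these called 0.0% and 4.3%, so nothing is read from the lack of calls. Of 5 genes for CENP-A and its chaperones, 1 lay apart, as lower, beside 19.6% of all genes, and the median fitted log2 change was 0.06. Cenpa, the H3 of the centromere, measured 696 and 570 CPM in control and 597 and 749 CPM under overexpression. Mis18a, a subunit of the complex that licenses CENP-A loading, measured 117 and 213 CPM against 87.4 and 184 CPM. The signs of both turned when 1 library was left out.

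Of 7 partners of DAXX and ATRX, 3 lay apart as lower and 1 as higher, beside 19.6% and 24.0% of all genes, with a median log2 fold change of -0.18. Trim28, a corepressor that recruits the H3K9 methyltransferase SETDB1, measured 99.6 and 138 CPM in control and 59.8 and 54.7 CPM under overexpression, below both controls. Setdb1 measured 48.0 and 104 CPM against 87.4 and 87.6 CPM, with overlap, and its sign turned without control replicate 1 (-0.26).

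**Figure D5:**
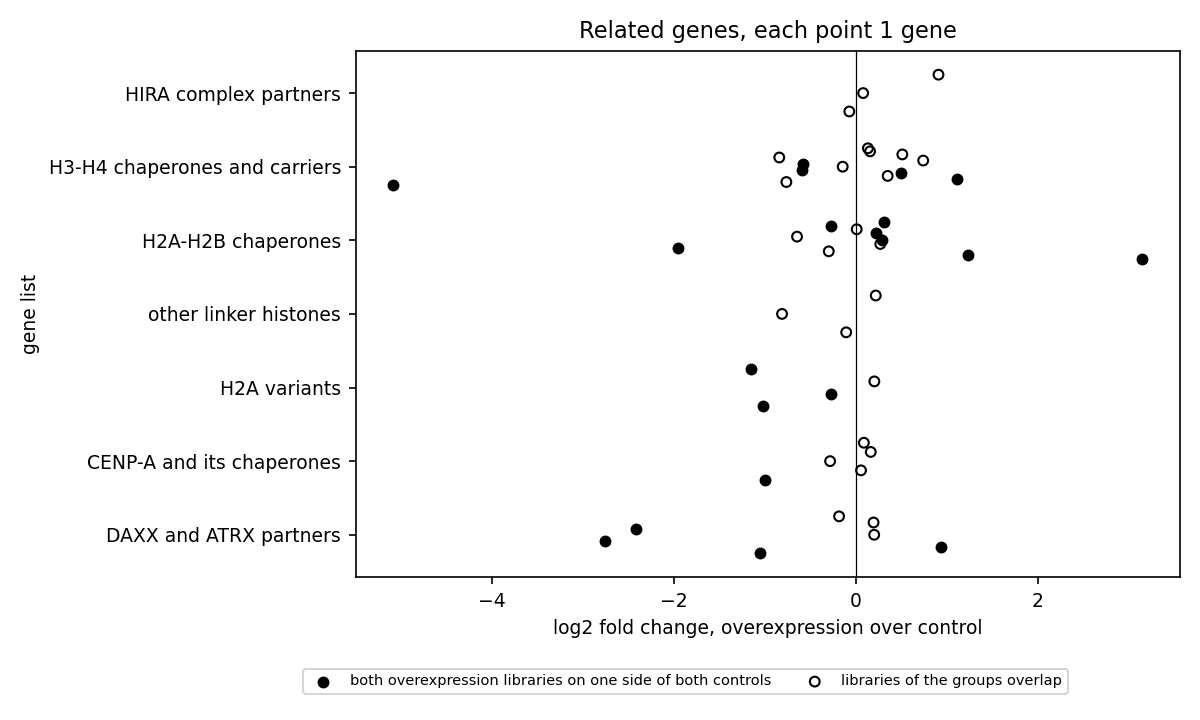
Fitted log2 fold change of overexpression over control for each tested gene of the 7 related lists, filled where both overexpression libraries lie on one side of both controls. H1f1, with 0 reads in both controls, is left out, and the H2A variants have 3 of 4 genes below 0 with the groups apart.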

How the data were processed

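The tools named per the submitters' processing notes are FastQC, Trim Galore, featureCounts and HISAT2, with mm10; their versions, the annotation and the strand setting are not given there. Raw whole-number counts for each gene were deposited by the authors. FPKM values, which scale such reads by exon length and library total, were deposited beside them. No molecular identifiers are described, so PCR copies are counted.

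Positions, exon lengths and overlaps came from GENCODE M21 (26680 of 27115 identifiers matched), and copies from blastn (2.17.0). Counts were filtered by filterByExpr (16801 genes kept), scaled by TMM and tested in R (4.3.3) with edgeR (4.0.16) glmQLFit and glmQLFTest, two-sided, with Benjamini-Hochberg adjustment over all genes. The SE is the size of the log2 change over the root of its quasi-likelihood F. Values given with 2 libraries a group have wide error. CPM uses TMM-adjusted library sizes, and the likeness to H1f8 used log2(CPM + 0.5). Alternatives were other scalings and filters, the replicate number as a block, Trim75 removed before scaling, leaving out 1 library at a time, DESeq2 (1.42.0), limma (3.58.1) on voom weights, and limma on log2(FPKM + 1) or log2(FPKM + 0.1). Adding pseudogene reads to H3f3a and H3f3b was chosen after seeing the data. The edgeR script was tested on simulated data. The members and lists were chosen with earlier results of these data known. All members were named, and of each related list the 3 genes with the highest mean CPM, or all genes of lists of up to 4, except 2 genes that are not reported here. Same-numbered libraries did not deviate together (correlation 0.01), so the numbers were not taken as pairs. Figures were drawn with matplotlib (3.10.9). Single-cell data named in the design text were not analysed here.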

Additional observations from a re-analysis of the deposited data

How the results depend on the processing

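Of the 10 genes, 7 kept the sign of their log2 fold change in all 15 alternatives, and H3f3a, Daxx and Atrx turned where a library was left out. H1f8 was -1.44 by total counts and by limma on either FPKM scale, past the spread between libraries, and from -1.42 to -1.35 with 1 library left out. The number of genes called was 0 in edgeR under each scaling, each filter, the block and each library left out, and 0 in limma, against 652 in DESeq2 (452 higher and 200 lower). With the replicate number as a block, edgeR called 0 genes and H1f8 was at -1.37. The number of members with the groups apart was 6 in the main test and from 6 to 9 with 1 library left out, where 3 libraries separate more easily. The share of all genes apart was not computed with a library left out, so nothing is read from these counts. The median log2 fold change of all genes, 0.03, moved to 0.37 without control replicate 1, 0.21 without control replicate 2, 0.15 with voom and 0.14 with the block, and the values of single genes under these settings stand relative to it. Depth limits Hira and Daxx, at 61 to 171 reads a library. A lone remaining library was taken to vary as its counterpart group does.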
